A study of Mus musculus with 27 samples.

Results

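Nfkbia, Nfkbib, Nfkbie, Nfkbiz, Nfkbid, Bcl3, Tnfaip3, Tnip1 and Tnip3 encode the IκB proteins and the A20 axis, the inhibitors through which a macrophage limits its own NF-κB response. They were found by the gene name printed for each array feature, which gave 9 genes on 13 features out of 32138 named genes on 55681 features. The gene's value was that of its feature with the highest mean, and values are log2 signals that can be compared between arrays but not between genes. The features lie, by the array design and in build mm9, in each gene's transcript, for example at chr12:56590945-56591440 for Nfkbia, chr10:18720776-18720835 for Tnfaip3 and chr16:55817859-55817918 for Nfkbiz, all on the minus strand.

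Bone marrow-derived macrophages of female C57BL/6 mice aged 6 to 8 weeks, grown for 7 days in L929-conditioned medium, were profiled on single-colour arrays. Naive cells received no ligand. Acute groups received for 4 h 100 ng/ml LPS (lipopolysaccharide, a TLR4 ligand), 100 ng/ml Pam3CSK4 (TLR1/TLR2), 10 µg/ml Poly(I:C) (TLR3) or CpG DNA (TLR9), for which the labels state 100 µM while the methods give another concentration, so the dose used was not settled here. Re-stimulated groups had been exposed to the same ligand for 24 h and washed before that 4 h stimulation. Of 27 arrays, 25 carried deposited values: re-stimulated LPS and acute Pam3CSK4 had 2 arrays each and the other 7 groups had 3. The methods state in one section that every culture came from the marrow of several mice pooled, with a separate pool for each replicate. In another section they state that replicates came from different mice. Whether an array stands for a pool or for a single animal was therefore not settled here.

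In resting cells the classical IκB proteins hold NF-κB dimers in the cytoplasm. TLR signalling activates the IKK kinases, which mark these inhibitors for degradation, and the freed dimers then switch on genes that include the inhibitors themselves. The atypical members act in the nucleus, where they bind NF-κB subunits on DNA and can raise or lower the transcription of selected cytokine genes. A20 removes and builds ubiquitin chains on signalling proteins upstream of IKK, and the ABIN proteins help to bring it to them.

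RefSeq promoter windows of build GRCm38.p6, reaching from 250 bases before to 50 bases after a transcript start, were available for 8 of the 9 genes, in 11 windows. The κB consensus, the motif NF-κB dimers bind, was searched by its letters on both strands, with overlapping matches kept. It was present in 7 of the 11 windows and in 8.46% of the 32851 windows of all genes. The 7 windows belonged to Nfkbia, Nfkbie, Nfkbid, Bcl3, Tnfaip3, Tnip1 and Tnip3, and the single Nfkbib window held none of these letters. The core of the interferon-stimulated response element, GAAANNGAA, was present in 2 of the 11 windows and in 8.56% of all windows. The 250 bases before the start are shown for 4 genes that hold a match, with κB matches in capitals, each on the strand of the gene. They do not stand for all 9 genes, as Nfkbib, which was called with most ligands below, holds no match and is not shown.
Nfkbia, chr12:55492648-55492897, minus strand: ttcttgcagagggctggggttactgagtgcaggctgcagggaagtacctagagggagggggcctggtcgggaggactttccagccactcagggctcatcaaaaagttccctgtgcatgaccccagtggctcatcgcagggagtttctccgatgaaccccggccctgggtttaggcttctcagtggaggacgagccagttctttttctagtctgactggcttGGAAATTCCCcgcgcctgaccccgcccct
Nfkbie, chr17:45555450-45555699, plus strand: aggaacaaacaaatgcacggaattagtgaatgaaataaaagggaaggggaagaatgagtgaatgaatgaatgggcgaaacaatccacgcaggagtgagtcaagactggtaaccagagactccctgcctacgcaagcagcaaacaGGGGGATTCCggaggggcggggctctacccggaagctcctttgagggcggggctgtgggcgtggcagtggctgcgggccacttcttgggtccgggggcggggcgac
Tnfaip3, chr10:19015411-19015660, minus strand: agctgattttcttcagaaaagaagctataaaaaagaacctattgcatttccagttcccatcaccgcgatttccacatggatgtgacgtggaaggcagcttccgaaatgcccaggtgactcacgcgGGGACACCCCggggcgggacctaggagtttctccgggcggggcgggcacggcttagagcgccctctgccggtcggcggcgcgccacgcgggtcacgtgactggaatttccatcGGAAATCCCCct
Tnip1, chr11:54962941-54963190, minus strand: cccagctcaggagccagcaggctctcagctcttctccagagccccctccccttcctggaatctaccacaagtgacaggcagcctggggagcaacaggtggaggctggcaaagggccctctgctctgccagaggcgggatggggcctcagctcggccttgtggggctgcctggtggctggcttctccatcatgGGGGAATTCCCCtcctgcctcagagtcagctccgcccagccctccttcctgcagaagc
Counted back from the start, the Nfkbia match lay at -29 to -20, the 2 Tnfaip3 matches at -125 to -116 and -12 to -3, and the Nfkbie match at -106 to -97. The capitals of Tnip1, from -58 to -47, are 3 overlapping matches. The single matches of the other 2 genes with 1 window were GGGAAATCCC in Tnip3, at -54 to -45, and GGGAAGTCCC in Bcl3, at 3 to 12 after the start. Nfkbid held its 2 matches, GGGACTTCCC and GGAATTCCCC, in the second of its 3 windows. A match is a run of letters and no measure of binding.

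All 13 features were above the scanner's background on all 25 arrays, and none was saturated. On 24 arrays 42.1% to 54.3% of features were above background, but on naive replicate 3 it was 74.6%, and there all 9 genes had their highest naive value. All 8 macrophage markers were above background on every array, and only their calls against naive are listed here. With acute LPS Csf1r, Cd68 and Lyz2 were called lower and Cd14 higher, against 13.2% of all features each way. Cd14 was also called higher with acute CpG and in all 4 re-stimulated groups. Mertk was called lower in re-stimulated CpG and Pam3CSK4 cells, and Cd68 in re-stimulated CpG cells. Of all features, 3.09% were called higher with acute CpG, 3.8% with acute Poly(I:C) and 2.61% to 6.65% in the re-stimulated groups. In re-stimulated CpG and Pam3CSK4 cells 6.45% and 2.74% were called lower. Neutrophil markers split the arrays by slide: the mean of 7 markers ran from 8.34 to 11.3 on the 15 arrays of slides 1 and 2, from 4.87 to 5.83 on the 7 arrays of slide 3, and from 4.80 to 5.08 on the 3 acute LPS arrays. Ly6g was above background on 16 arrays and Mpo on 16, while Elane was above it on all 25. Array means over the markers of other cell types ran from 3.32 to 4.79 for 4 B cell, 4.68 to 5.71 for 5 T cell, 3.36 to 5.11 for 4 fibroblast and 6.27 to 8.35 for 4 dendritic cell genes. Of these, the T cell gene Lck was called higher with acute LPS, and the dendritic cell gene Zbtb46 was called higher with acute LPS, CpG and Poly(I:C) and in re-stimulated CpG and Poly(I:C) cells, all against naive. Siglech, another of the dendritic cell genes, went the other way and was called lower in re-stimulated CpG cells against naive. Slides 1, 2 and 3 carry replicates 1, 2 and 3 of every group except acute LPS. The acute LPS arrays lie on 3 slides of their own, with other scan days and another array design file in the scanner headers. Acute LPS therefore cannot be told apart from its slides. In bulk RNA, fewer cells of a type and less RNA per cell cannot be told apart either. The part of these differences in the results below was not tested, and counts are therefore also given without naive replicate 3 and without the slide 3 arrays, the latter chosen after seeing the data.

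**Figure D1:**
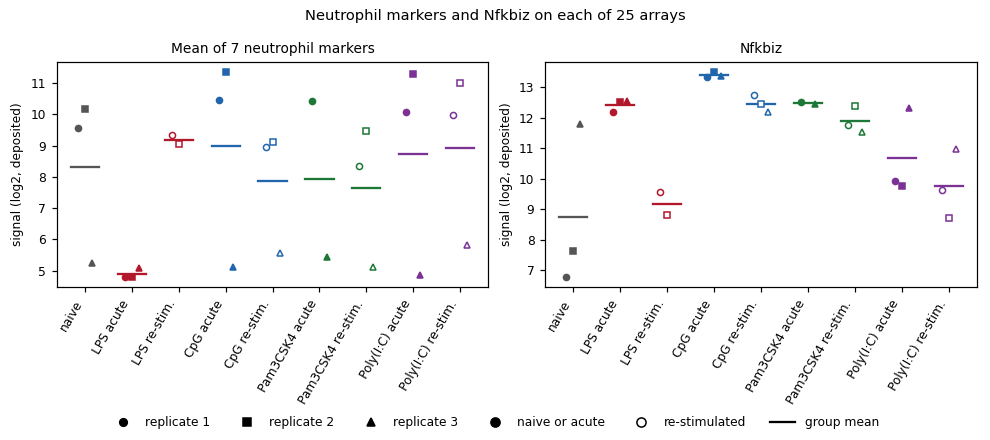
Mean log2 signal of 7 neutrophil markers (left) and log2 signal of Nfkbiz (right) on each of 25 arrays; symbols give the replicate, open symbols re-stimulated groups and bars group means. The slide 3 arrays (triangles outside acute LPS) have marker means of 4.87 to 5.83, and naive replicate 3 has an Nfkbiz signal of 11.81 against 6.78 and 7.63 on the other naive arrays.

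Acute stimulation was first set against naive cells, to ask which inhibitors each ligand switched on. A gene was called when its Benjamini-Hochberg adjusted p over all features tested was under 0.05 and it differed at least 1.5-fold. LPS raised 5 of the 9 genes (Nfkbia, Nfkbib, Nfkbie, Nfkbid and Tnfaip3), against 13.2% of all features called higher. CpG raised 4 (Nfkbia, Nfkbib, Nfkbie and Tnfaip3), against 3.09%. Poly(I:C) raised 3 (Nfkbib, Nfkbie and Tnfaip3), against 3.8%. With Pam3CSK4 limma called none, among the 9 or among all 27843 features tested (0%), while 6 of the 9 had an unadjusted p under 0.05. The 9 genes had a median difference of 2.33 (LPS), 2.31 (CpG), 2.09 (Pam3CSK4) or 1.58 (Poly(I:C)), whereas over all features it lay between -0.10 and 0.01.

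These counts moved with the arrays that stand apart. Without naive replicate 3 the ligands raised 9 (LPS), 7 (CpG), 3 (Pam3CSK4) and 6 (Poly(I:C)) of the 9 genes, with 17.4%, 4.92%, 0.994% and 5.4% of all features called higher. Without the whole of slide 3 they raised 9, 8, 8 and 8, with 17.4%, 7.7%, 5.52% and 10.8% of all features called higher, and the gene left out for the last 3 ligands was Nfkbid. With the replicate number, which is also the slide, as a block, CpG kept 2 calls (Nfkbib and Nfkbie) and Poly(I:C) none. The share of all features called with this block is not given, so these losses are not a result about the 9 genes. The 5 LPS calls remained without any 1 array. The CpG calls of Nfkbib, Nfkbie and Tnfaip3 were lost without naive replicate 2, CpG replicate 1 or CpG replicate 2, that of Nfkbia without any array but naive replicate 3, and all 3 Poly(I:C) calls without naive replicate 1 or 2 or Poly(I:C) replicate 1 or 2.

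**Figure D2:**
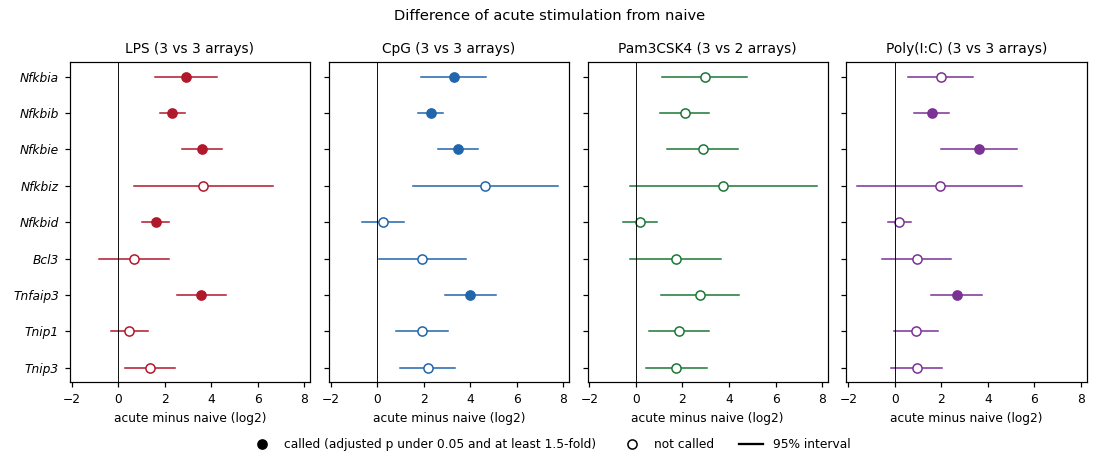
Difference of acute stimulation from naive (log2, horizontal axis) for the 9 genes and 4 ligands, with 95% intervals; filled points were called. Nfkbib, Nfkbie and Tnfaip3 are filled for LPS, CpG and Poly(I:C), and the intervals of Nfkbiz, whose naive arrays spread most, are the widest in each panel.

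Among the classical IκB genes, Nfkbia encodes IκBα, the inhibitor that is degraded and resynthesised fastest. Its naive signals were 13.37, 13.69 and 15.53. They were 17.11, 17.01 and 17.22 in acute LPS, 17.36, 17.75 and 17.36 in acute CpG, 17.44 and 16.84 in acute Pam3CSK4, and 16.28, 15.98 and 16.22 in acute Poly(I:C). All acute arrays lay above all naive arrays, and Poly(I:C) gave the lowest acute signals. The difference was 2.92 ± 0.56 (SE; 7.56-fold, adjusted p = 0.0128) for LPS and 3.29 ± 0.58 (9.8-fold, adjusted p = 0.0332) for CpG. For Poly(I:C) it was 1.96 ± 0.57 (adjusted p = 0.112) and for Pam3CSK4 2.95 ± 0.72 (adjusted p = 0.288). Within slides, 1 array against 1, the CpG difference ran from 1.83 to 4.05 and the Poly(I:C) difference from 0.70 to 2.91, with every slide higher.

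Nfkbib encodes IκBβ, a slower classical inhibitor. Its 3 naive arrays lay close together at 11.27, 11.26 and 11.68, and every stimulated array of every group, from 12.38 to 14.08, lay above them. Acute LPS gave 13.73, 13.49 and 13.99, a difference of 2.33 ± 0.23 (5.04-fold, adjusted p = 0.00155), and CpG gave 13.77, 13.91 and 13.45, a difference of 2.31 ± 0.22 (adjusted p = 0.00881). Poly(I:C) gave 13.36, 13.20 and 12.38, a difference of 1.58 ± 0.31 (adjusted p = 0.0429). The array holds 2 further Nfkbib features, and both were also called higher for these 3 ligands.

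Nfkbie encodes IκBε, which restrains Rel-containing dimers. Its naive signals of 9.45, 9.74 and 10.69 rose to 13.51, 13.81 and 13.34 with LPS (3.60 ± 0.35, 12.1-fold, adjusted p = 0.00161) and to 13.50, 13.66 and 13.18 with CpG (3.49 ± 0.36, adjusted p = 0.0107). Poly(I:C) gave 14.49, 14.00 and 12.18, a difference of 3.60 ± 0.67 (adjusted p = 0.0380). The first 2 of these were the highest Nfkbie signals of the study, and the third, on slide 3, lay below all acute LPS and CpG arrays.

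Nfkbiz encodes IκBζ, a nuclear IκB needed for secondary cytokine genes such as Il6, and it spread most between naive arrays, at 6.78, 7.63 and 11.81. Acute CpG gave 13.33, 13.49 and 13.38, Pam3CSK4 12.53 and 12.46, and LPS 12.17, 12.50 and 12.55, all above every naive array. Poly(I:C) gave 9.93, 9.76 and 12.33, overlapping the naive range, with its highest array on slide 3, like that of the naive group. No difference was called over all arrays (4.66 ± 1.27 for CpG, adjusted p = 0.0927; 3.67 ± 1.24 for LPS, adjusted p = 0.0741). Without slide 3 all 4 differences were called: CpG gave 6.21 (adjusted p = 0.00229), Pam3CSK4 5.33 (adjusted p = 0.00848) and LPS 5.20 (adjusted p = 0.00019). The Poly(I:C) difference was then 2.64 (adjusted p = 0.0108).

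Nfkbid encodes IκBNS, a nuclear IκB that limits TLR-induced cytokine genes, and it was called higher with acute LPS and not called with the other ligands. Its naive signals were 11.49, 11.31 and 11.88, and those of acute LPS 13.40, 13.20 and 12.91, a difference of 1.61 ± 0.24 (3.06-fold, adjusted p = 0.00552). The CpG, Pam3CSK4 and Poly(I:C) arrays, acute and re-stimulated, ran from 10.94 to 12.76 and overlapped the naive range in each group. Those acute differences were 0.26, 0.17 and 0.19. The acute LPS arrays lie on slides of their own, so ligand and slide cannot be told apart here. 

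Bcl3, a nuclear IκB that stabilises p50 dimers on DNA, was not called in any of the 12 comparisons. Its naive signals were 11.63, 12.19 and 14.00, and the acute differences ran from 0.67 (LPS, adjusted p = 0.455) to 1.95 (CpG, adjusted p = 0.202). Acute CpG gave 14.96, 15.32 and 13.38, the third on slide 3 and below naive replicate 3. Without slide 3 it was called for all 4 ligands, at 1.37 for LPS, 1.68 for Poly(I:C), 2.74 for Pam3CSK4 and 3.23 for CpG.

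**Figure D3:**
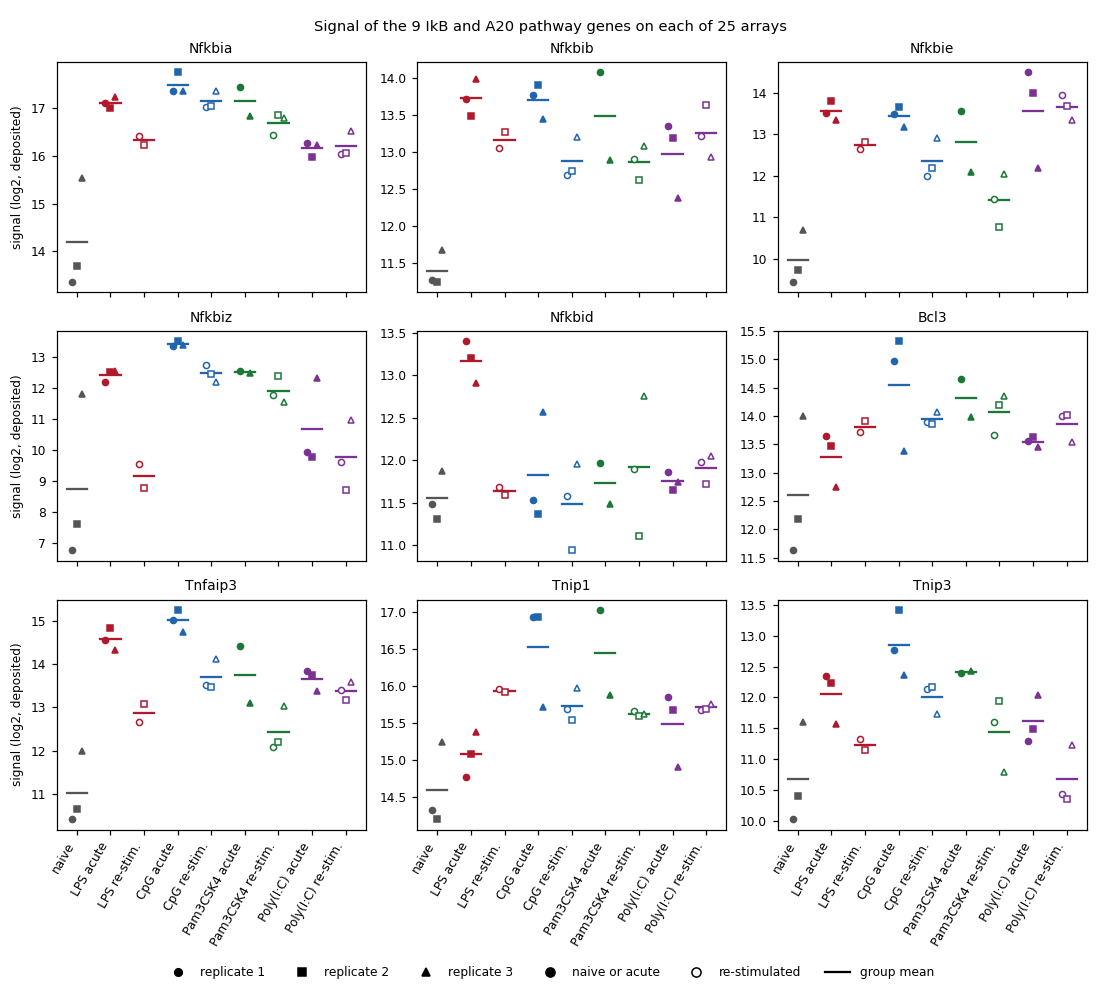
Log2 signal of the 9 genes (1 panel each, with its own axis) on each of 25 arrays in 9 groups; symbols give the replicate, filled symbols naive or acute and open symbols re-stimulated groups, and bars the group means. Naive replicate 3 is the highest naive array in all 9 panels, and acute LPS stands above every other group for Nfkbid.

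Tnfaip3 encodes A20, and its difference with CpG was the largest of the 12 called in these 4 comparisons. Naive signals of 10.41, 10.64 and 11.98 rose to 15.04, 15.26 and 14.76 with CpG (4.01 ± 0.44, 16.1-fold, adjusted p = 0.0130) and to 14.57, 14.85 and 14.34 with LPS (3.58 ± 0.44, adjusted p = 0.00309). Poly(I:C) gave 13.85, 13.76 and 13.38 (2.65 ± 0.44, adjusted p = 0.0289) and Pam3CSK4 14.42 and 13.10 (2.75 ± 0.65, adjusted p = 0.288). No acute array overlapped the naive range.

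Tnip1 encodes ABIN-1, which links A20 to its targets. Its naive signals were 14.33, 14.21 and 15.25, and CpG gave 16.93, 16.93 and 15.71, Pam3CSK4 17.03 and 15.88, LPS 14.78, 15.09 and 15.38 and Poly(I:C) 15.86, 15.68 and 14.92. CpG and Pam3CSK4 arrays lay above all naive arrays, and those of LPS and Poly(I:C) overlapped them. The CpG difference of 1.93 ± 0.45 had an adjusted p of 0.0662, and the LPS difference was 0.49 ± 0.34. A second Tnip1 feature followed the first over the 25 arrays (r = 0.975).

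Tnip3 encodes ABIN-3, and its 2 features differed in their calls. The first, which begins at base 749 of the transcript, gave differences of 1.37 ± 0.45 with LPS (adjusted p = 0.0676) and 2.17 ± 0.48 with CpG (adjusted p = 0.0586). The second, at base 3708, gave 2.61 ± 0.67 with LPS (adjusted p = 0.0327) and 3.18 ± 0.65 with CpG (adjusted p = 0.0471), both called. Signals of the second were 6.22, 7.39 and 8.68 in naive cells, 10.50, 10.42 and 9.22 with LPS and 10.54, 11.19 and 10.12 with CpG. The features correlated over the arrays (r = 0.937), and the difference between their responses was not tested.

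Re-stimulation was then set against acute stimulation, to ask which inhibitors responded less, or more, in cells exposed before. With LPS 5 of the 9 genes fell (Nfkbia, Nfkbie, Nfkbiz, Nfkbid and Tnfaip3), against 17% of all features called lower, and Tnip1 rose, against 17.2% called higher. With CpG Tnfaip3 fell, against 1.71% called lower. With Pam3CSK4 limma called none of the 9 and 0% of all features, and with Poly(I:C) none of the 9 against 4.93% of all features called in either direction. Unadjusted p-values under 0.05 were found for 3 and 1 of the 9. The 9 genes had a median difference of -0.82 (LPS), -0.82 (CpG), -0.61 (Pam3CSK4) or 0.10 (Poly(I:C)), and over all features between -0.02 and 0.06.

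The LPS comparison set 3 arrays with neutrophil marker means of 4.80 to 5.08 against 2 arrays with 9.05 and 9.33, on different slides. On re-stimulation 4 of the 6 neutrophil markers tested were called higher (Ly6g, Camp, Ngp and Ltf), against 17.2% of all features. The LPS calls of Nfkbiz, Nfkbid and Tnfaip3 remained without any 1 array, but that of Nfkbiz was lost with all 27 arrays, which bring back a low-quality re-stimulated array (-2.33, adjusted p = 0.126). Those of Nfkbia, Nfkbie and Tnip1 were lost without acute replicate 1 or 2 or re-stimulated replicate 1 or 2. For CpG the Tnfaip3 call was lost without any array but acute replicate 3, and with the replicate block. Without slide 3, CpG lowered 5 genes (Nfkbib, Nfkbie, Bcl3, Tnfaip3 and Tnip1), against 3.96% of all features called lower. Pam3CSK4 then lowered 2 (Nfkbie and Tnfaip3), against 2.22%, and Poly(I:C) lowered Tnip3, against 11.6%, as it did with the replicate block.

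Nfkbiz showed the largest decrease, and it was seen with LPS. Its acute signals of 12.17, 12.50 and 12.55 stood against 9.56 and 8.80 on re-stimulation, a difference of -3.23 ± 0.29 (9.39-fold lower, adjusted p = 0.000999). Re-stimulated CpG arrays were at 12.73, 12.44 and 12.19, all below the acute CpG arrays, with a difference of -0.95 ± 0.20 (adjusted p = 0.0525). Pam3CSK4 gave 11.76, 12.39 and 11.53, and Poly(I:C) gave 9.62, 8.70 and 10.97. The Poly(I:C) difference was negative on all 3 slides, from -1.35 to -0.32.

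Tnfaip3 fell to 12.65 and 13.07 with LPS (-1.72 ± 0.25, adjusted p = 0.00422) and to 13.53, 13.49 and 14.12 with CpG (-1.31 ± 0.25, adjusted p = 0.0453). Re-stimulated Pam3CSK4 arrays at 12.09, 12.19 and 13.04 also lay below both acute arrays (-1.32 ± 0.49, adjusted p = 0.335). Poly(I:C) arrays at 13.41, 13.16 and 13.59 overlapped the acute ones (-0.28 ± 0.21). Nfkbid fell with LPS to 11.69 and 11.59, inside the naive range, by 1.53 on the log2 scale (SE 0.22, adjusted p = 0.00437).

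The classical IκB genes moved less. With LPS, Nfkbia was at 16.41 and 16.24, a difference of -0.79 ± 0.20 (adjusted p = 0.0251), and Nfkbie at 12.65 and 12.81, a difference of -0.83 ± 0.22 (adjusted p = 0.0329). Both calls were lost in 1 fit of all 9 groups, alone or with the slide as a random block. They were also lost with median scaling, without the detection filter and with all 27 arrays (limma, adjusted p up to 0.487 and 0.416). Nfkbib at 13.06 and 13.28 differed by -0.56 ± 0.23 (adjusted p = 0.106). Re-stimulated Nfkbie arrays with Poly(I:C), at 13.95, 13.69 and 13.34, differed from the acute ones by 0.10 ± 0.59.

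In the opposite direction, Tnip1 stood at 15.96 and 15.92 on LPS re-stimulation, above all 3 acute arrays (0.86 ± 0.24, 1.81-fold, adjusted p = 0.0359). This call was lost in 1 fit of all 9 groups, with the slide as a random block, without the detection filter and with all 27 arrays (adjusted p up to 0.129). Its second feature, at 15.89 and 15.65, gave 0.55 ± 0.23 and was not called (adjusted p = 0.107). For CpG, Pam3CSK4 and Poly(I:C) the Tnip1 differences were -0.79, -0.82 and 0.23, none of them called. Bcl3 on LPS re-stimulation, at 13.71 and 13.90, also lay above its acute arrays, by 0.53 ± 0.31 (adjusted p = 0.228).

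**Figure D4:**
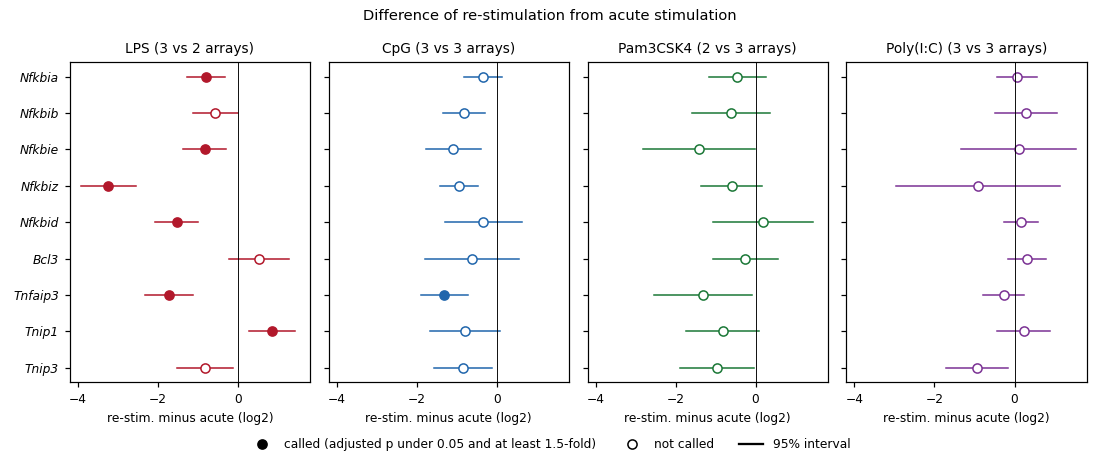
Difference of re-stimulation from acute stimulation (log2, horizontal axis) for the 9 genes and 4 ligands, with 95% intervals; filled points were called. LPS has 6 filled points, of which Tnip1 alone is to the right of 0, CpG has 1, and Pam3CSK4 and Poly(I:C) have none.

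Both Tnip3 features had a negative difference on re-stimulation with each ligand. The first gave -0.82, -0.83, -0.96 and -0.94 for LPS, CpG, Pam3CSK4 and Poly(I:C), and none of these was called. The second was called for LPS (-2.17 ± 0.43, adjusted p = 0.0115) and CpG (-1.75 ± 0.29, adjusted p = 0.0385) and gave -1.45 ± 0.48 for Pam3CSK4 (adjusted p = 0.288) and -1.84 ± 0.46 for Poly(I:C) (adjusted p = 0.0729). Its re-stimulated signals were 8.09 and 7.65 with LPS, 8.89, 9.01 and 8.71 with CpG, 8.37, 9.41 and 7.87 with Pam3CSK4, and 7.09, 7.01 and 8.69 with Poly(I:C). In each ligand they lay below every acute array.

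**Figure D5:**
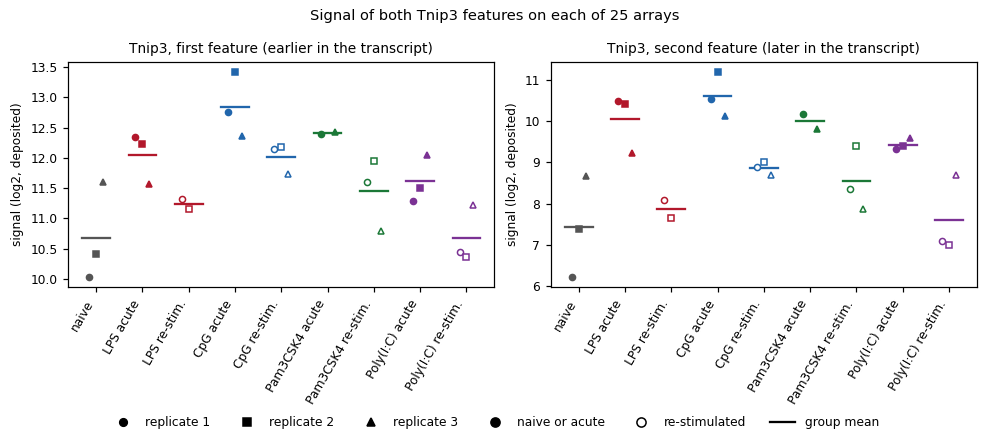
Log2 signal of the first (left) and second (right) Tnip3 feature on each of 25 arrays; symbols give the replicate, open symbols re-stimulated groups and bars group means. With the second feature every re-stimulated array lies below every acute array of its ligand, by group means of 7.87 against 10.04 for LPS and 7.60 against 9.43 for Poly(I:C).

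Re-stimulated cells were also set against naive cells, to ask which inhibitors stayed above the resting level. LPS left 2 genes raised (Nfkbib and Nfkbie), against 3.27% of all features, and CpG 4 (Nfkbia, Nfkbib, Nfkbie and Tnfaip3), against 6.65%. Pam3CSK4 left 1 (Nfkbib), against 2.61%, and Poly(I:C) 3 (Nfkbib, Nfkbie and Tnfaip3), against 4.79%. Nfkbib was called with every ligand, with differences of 1.77, 1.48, 1.47 and 1.87 for LPS, CpG, Pam3CSK4 and Poly(I:C). Nfkbie differed by 2.77, 2.40, 1.45 and 3.70, called for all but Pam3CSK4. None of the 9 genes was called lower. With the replicate block the counts were 8, 4, 0 and 2, given without the share of all features called and so not a result about these genes. The block kept only replicate numbers present in both groups, so for LPS it also left out naive replicate 3. Without naive replicate 3 they were 8, 8, 7 and 6, with 11.7%, 12.5%, 7.27% and 6.96% of all features called higher, and without slide 3 they were 8, 8, 8 and 7, with 11.7%, 11.4%, 10.3% and 12.8%. All calls but that of Nfkbie with Poly(I:C) were lost without naive replicate 1 or 2.

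Ligands were compared directly in 1 fit of all 9 groups, with 6 pairs of acute groups and 54 tests on the 9 genes. Of these 7 were called. For LPS against CpG, Pam3CSK4 and Poly(I:C) they were 2, 2 and 1 of the 9 genes, which is near the 17.2%, 19.7% and 11.8% of all features called there. For CpG against Poly(I:C) they were 2 of 9, where 5.07% of all features were called. None was called for CpG against Pam3CSK4 (0.0433%) or Pam3CSK4 against Poly(I:C) (8.05%). Nfkbia was higher with CpG than with Poly(I:C) by 1.33 ± 0.36 (adjusted p = 0.0380), and Tnfaip3 by 1.36 ± 0.37 (adjusted p = 0.0405). Nfkbid was higher with LPS than with CpG, Pam3CSK4 and Poly(I:C), by 1.35, 1.44 and 1.42. Tnip1 was lower with LPS than with CpG and Pam3CSK4, by -1.44 and -1.37. The 5 calls that involve LPS also compare slides and neutrophil marker levels, and 4 of them, all but Tnip1 against CpG, were lost when the values were rebuilt with median scaling. Between CpG and Pam3CSK4 the Nfkbia difference was 0.34 (95% interval -0.50 to 1.19) and the Nfkbib difference 0.22 (-0.46 to 0.90). For Nfkbie the LPS and Poly(I:C) means were 13.56 and 13.56 (interval of the difference -1.04 to 1.04).

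The difference on re-stimulation was likewise compared between ligands, and limma called none of the 54 tests, 7 of which had an unadjusted p under 0.05. Of all features 7.24%, 8.2% and 4.09% were called for LPS against CpG, Pam3CSK4 and Poly(I:C), 0.00378% for CpG against Pam3CSK4, 0.0396% for CpG against Poly(I:C) and 0.141% for Pam3CSK4 against Poly(I:C). The Nfkbiz decrease with LPS was larger than that with CpG by 2.29 in this fit, with an interval of -5.10 to 0.53 for the signed difference (adjusted p = 0.311), so it was not shown to differ between those ligands. The smallest adjusted p-values were those of Tnip1 (0.0591) and Nfkbid (0.0627).

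Ordered by group mean, naive was lowest for 7 of the 9 genes. For Nfkbid the lowest was re-stimulated CpG and for Tnip3 re-stimulated Poly(I:C), and both overlapped the naive arrays. Acute CpG was highest for Nfkbia, Nfkbiz, Bcl3, Tnfaip3, Tnip1 and Tnip3, acute LPS for Nfkbib and Nfkbid, and re-stimulated Poly(I:C) for Nfkbie. Of these leading groups, only acute CpG for Nfkbiz and acute LPS for Nfkbid had arrays that did not overlap the next group. Most neighbours in each order overlapped, and for Nfkbib, Nfkbie, Nfkbia and Tnfaip3 the naive arrays lay apart from the group above them. These orders are those of each gene's feature with the highest mean. Both further Nfkbib features had acute CpG highest, and the second Tnip1 feature had acute Pam3CSK4 highest. On the second Tnip3 feature naive was lowest.

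Over the 9 group means, which share the naive group and the slides, Bcl3 and Tnip1 had the highest correlation of any pair (r = 0.955), followed by Nfkbiz and Tnip3 (r = 0.910) and Nfkbib and Tnfaip3 (r = 0.903). Nfkbid correlated with the other members between -0.27 and 0.48. Among 18120 features compared, the named genes most like each member over these means were Pde4b for Nfkbia (r = 0.998), Nfkb2 for Nfkbib (0.985), Stx11 for Nfkbie (0.976), Rin3 for Nfkbiz (0.985), Kcnh4 for Nfkbid (0.988), Cd14 for Bcl3 (0.978), Rhbdf2 for Tnfaip3 (0.989), Map3k6 for Tnip1 (0.985) and Bcl10 for Tnip3 (0.986). The second most like were Ube2n, Traf2, Ttc39c, Fubp1, Vmn1r87, Nfyb, Tnfsf9, Ampd3 and Rod1 in the same order. With so many features and so few means, high values arise easily, and they are given as a description.

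The other genes of the pathway were counted in lists. All 5 NF-κB subunit genes rose with acute LPS, where 13.2% of all features were called higher, from Rela at 0.65 ± 0.18 to Rel, which encodes c-Rel, at 4.63 ± 0.52. Nfkb1, Nfkb2 and Relb rose with CpG (3.09% of all features), Nfkb1 and Nfkb2 with Poly(I:C) (3.8%), and none of the 5 was called with Pam3CSK4 (0%). On re-stimulation Nfkb1 and Rel fell with LPS, by 1.67 and 3.96 on the log2 scale, where 17% of all features were called lower, and Nfkb1 with CpG, by 1.64, where 1.71% were. Nfkb2 was called above naive in all 4 re-stimulated groups, by 1.85 to 2.32, and Relb in those of CpG and Poly(I:C). Of all features 3.27%, 6.65%, 2.61% and 4.79% were called higher there for LPS, CpG, Pam3CSK4 and Poly(I:C).

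Of 12 genes of the IKK complex and its upstream kinases, 5 rose with acute LPS (Ikbkb, Tbk1, Map3k8, Tab2 and Ripk1) and Tab1 fell, where 13.2% of all features were called higher and 13.2% lower. Map3k8, which encodes TPL2, a kinase held by p105, rose by 2.49 ± 0.49 and fell on LPS re-stimulation by 2.60. Tab2 and Ripk1 fell there too, which makes 3 of the 12 against 17% of all features called lower, and Tab1 rose, 1 of the 12 against 17.2% called higher. Tab1 and Map3k14 fell with acute CpG and Poly(I:C), where 2.63% and 2.23% of all features were called lower. Map3k14, which encodes NIK, rose on Poly(I:C) re-stimulation, where 2.31% were called higher. Against naive, re-stimulated CpG cells had Ikbkg called higher and Tab1 lower, where 6.65% and 6.45% of all features were.

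Of 12 A20 partners and linear-ubiquitin genes, Rnf31 and Optn rose with acute LPS and fell on LPS re-stimulation. These 2 of 12 are near the share of all features called, 13.2% higher with acute LPS and 17% lower on LPS re-stimulation. Fam105b, which encodes the deubiquitinase OTULIN, fell with acute LPS, where 13.2% of all features were called lower. Rnf31, the catalytic subunit of the linear ubiquitin ligase, rose by 1.81 ± 0.22 with LPS and 1.65 ± 0.23 with Poly(I:C). With acute Poly(I:C) 3.8% of all features were called higher. With CpG only Sqstm1, the autophagy receptor p62, rose (1.92 ± 0.35), where 3.09% of all features were called higher. With Pam3CSK4 none of the 12 was called, where 0% of all features were. Against naive, Cyld was called lower in re-stimulated CpG cells, where 6.45% of all features were. In re-stimulated Poly(I:C) cells Rnf31 was called higher and Fam105b lower, where 4.79% and 4.23% of all features were.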

How the data were processed

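RNA from bone marrow-derived macrophages was hybridised to single-colour Agilent arrays, in triplicate biological replicates per group as the methods call them. The authors deposited log2 values, background-corrected with RMA and quantile-normalised with limma, for 25 of 27 arrays and left 2 arrays of low quality empty. Per the file headers, the scanner files hold unnormalised spot and local background intensities with detection flags. Here the deposited log2 values were the main values and the scanner files gave detection and rebuilt alternatives, with a median absolute distance of 0.0355 to the deposited ones. The number of arrays limits the precision, and p-values weigh a difference against the spread between arrays.

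Groups came from the sample labels. Each pair of groups was fitted with limma 3.58.1 in R 4.3.3 (lmFit, eBayes) over the features that the scanner flagged above background on 2 or more arrays of one of them, with Benjamini-Hochberg adjustment over all of them and a call at adjusted p under 0.05 and at least 1.5-fold. Ligands were compared by contrasts in a fit of all 9 groups. The code was tested on simulated data. All 9 genes were named, other pathway genes as examples of their lists, and for each gene the 2 features most like it over group means. The members and lists were chosen with earlier results of these data known.

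Replicate numbers were taken to pair samples where the deviations of same-numbered arrays correlated above 0.1 in every one of 3 pairs, over 35582 features: acute CpG (0.190 to 0.238) and Poly(I:C) (0.273 to 0.346) with naive, re-stimulated with acute CpG (0.215 to 0.313) and Poly(I:C) (0.209 to 0.359), and re-stimulated Poly(I:C) with naive (0.124 to 0.180). Comparisons with fewer pairs were left out by this rule, though some correlated above 0.1. Naive with acute Pam3CSK4 gave 0.527 and 0.563, and acute with re-stimulated Pam3CSK4 0.158 and 0.160. Alternatives were other background correction and normalisation, no detection filter, 1 fit of all groups, the slide as a random block, the replicate block, all 27 arrays, and leaving out each array.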

Additional observations from a re-analysis of the deposited data

Results flagged for a closer look

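Acute levels of 4 genes differed between ligands in the test of the difference itself (limma, 1 fit of 9 groups, adjusted over all features). Shares of all features called were 5.07% for CpG against Poly(I:C) and 17.2%, 19.7% and 11.8% for LPS against CpG, Pam3CSK4 and Poly(I:C). The calls that involve LPS are near their shares. Nfkbia was higher with CpG than with Poly(I:C) by 1.33 ± 0.36 (SE, log2, adjusted p = 0.0380), a call lost without any 1 of CpG replicates 1 and 2 or the 3 Poly(I:C) arrays. Tnfaip3 was higher with CpG than with Poly(I:C) by 1.36 ± 0.37 (adjusted p = 0.0405), a call lost on leaving out any of 8 single arrays. Both CpG calls were also lost without the detection filter and with all 27 arrays (adjusted p up to 0.196).

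Nfkbid was higher with LPS than with CpG by 1.35 ± 0.35 (adjusted p = 0.0129), than with Pam3CSK4 by 1.44 ± 0.39 (adjusted p = 0.0140) and than with Poly(I:C) by 1.42 ± 0.35 (adjusted p = 0.0135). All 3 of these calls were lost with median scaling (adjusted p of 0.200, 0.0504 and 0.135), and those against CpG and Poly(I:C) also with all 27 arrays (0.506 and 0.568). Tnip1 was lower with LPS than with CpG, by -1.44 ± 0.35 (adjusted p = 0.00770), and than with Pam3CSK4, by -1.37 ± 0.39 (adjusted p = 0.0169). The first of these was lost with all 27 arrays (adjusted p = 0.0614) and the second with median scaling (adjusted p = 0.121). These 5 differences set arrays on separate slides against each other, so ligand and slide cannot be told apart. No group held the 4 arrays that a test for a single outlying array needs.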

How the results depend on the processing

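Counts below are of the 9 genes called. They are given without the share of all features called in each setting, so a moved count is not a result about these genes. In 1 fit of all 9 groups, acute CpG gave 8 and acute Pam3CSK4 7 against naive, LPS re-stimulation gave 3 against acute, and re-stimulated LPS, CpG, Pam3CSK4 and Poly(I:C) gave 5, 7, 7 and 5 against naive. With the slide as a random block as well (consensus correlation 0.192), acute CpG and Pam3CSK4 gave 8 and 8, LPS re-stimulation 3, the 4 re-stimulated groups against naive 5, 8, 7 and 5, and the change on re-stimulation between ligands 2 of 54 tests. Rebuilt with median scaling, acute CpG, Pam3CSK4 and Poly(I:C) gave 8, 4 and 5, CpG re-stimulation 0, and the re-stimulated groups against naive 4, 8, 7 and 6. Acute levels between ligands gave 5 tests with median scaling, and 4 of the 7 calls were lost (Nfkbid for LPS against each other ligand and Tnip1 for LPS against Pam3CSK4). Rebuilt with the normexp background, acute CpG gave 7, CpG re-stimulation 2, re-stimulated LPS and Pam3CSK4 against naive 4 and 2, and the change between ligands 2. Without the detection filter, acute Poly(I:C) gave 0, LPS and CpG re-stimulation 3 and 0, and re-stimulated LPS and Pam3CSK4 against naive 0 and 0. With all 27 arrays, LPS re-stimulation gave 2 (Nfkbid and Tnfaip3), re-stimulated LPS against naive 0, and acute levels between ligands 2. The cause was not tested.

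Without the slide 3 arrays, chosen after seeing the data, the acute counts were 9, 8, 8 and 8 for LPS, CpG, Pam3CSK4 and Poly(I:C), the re-stimulated against acute counts 5, 2 and 1 for CpG, Pam3CSK4 and Poly(I:C), and the re-stimulated against naive counts 8, 8, 8 and 7.

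With the replicate block, acute CpG gave 2 and acute Poly(I:C) 0, CpG re-stimulation 0 and Poly(I:C) re-stimulation 1, all in comparisons whose numbers pair the samples. Re-stimulated LPS and Pam3CSK4 against naive gave 8 and 0 and the change between ligands 2. For re-stimulated LPS the block also left out naive replicate 3, so its count is not due to blocking alone. In acute LPS against naive, and in re-stimulated against acute LPS, same-numbered arrays correlated by at most 0.0656, so the number is only a name there.

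Leaving out 1 array at a time, acute LPS gave counts of 5 to 9 and acute CpG 0 to 7. Acute Pam3CSK4 ranged from 0 to 3 and acute Poly(I:C) from 0 to 6. In the same order of ligands, re-stimulated against acute counts ranged from 3 to 7, 0 to 3, 0 to 0 and 0 to 1, and re-stimulated against naive from 0 to 8, 0 to 8, 0 to 7 and 1 to 6. Acute levels between ligands ranged from 4 to 13 tests and the change between ligands from 0 to 5. The Nfkbiz difference of re-stimulated LPS from naive, 0.44 and not called, turned to -0.54 without naive replicate 1 and to -0.12 without naive replicate 2, and was 1.97 without naive replicate 3. No called difference changed sign under any alternative. With 2 or 3 arrays a group and 1 naive array apart from the others, a p that misses the threshold does not show that values did not differ.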
